A study of Mus musculus with 8 samples.

Results

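Messenger RNA of the membrane carriers in 7 solute carrier families (Slc1, Slc3, Slc6, Slc7, Slc36, Slc38 and Slc43) was measured in whole mouse lung. The members were all probes whose symbol in the deposited table was 1 of these family names followed by a number. They came to 77 probes of 39341, standing for 62 genes of 25735 named genes. By family there were 7 genes in Slc1, 2 in Slc3, 20 in Slc6, 15 in Slc7, 4 in Slc36, 11 in Slc38 and 3 in Slc43. The rule used names only, and no measured value. A probe for Slc7a6os, the gene on the opposite strand of Slc7a6, carries a matching start of the name but is no carrier and was left out.

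Amino acids do not cross a membrane unaided, and these carriers bring them into cells, exchange one for another, or release them from the lysosome. Several Slc7 proteins are light chains that reach the cell surface only when bound to a heavy chain of the Slc3 family, whereas other Slc7 proteins and the sodium-coupled Slc1 and Slc38 carriers work without one. The families are named by sequence likeness, so they also hold carriers of other cargo: Slc6 includes the dopamine, noradrenaline, serotonin, creatine and taurine transporters, and Slc43a3 carries purine nucleobases.

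The samples were lungs of 4 wild-type littermates (WT) and of 4 mice with an inducible transgene for active human TGF-β1 (TGFb1-Tg), the cytokine that drives scar formation in the lung. All were on the B6J background and 10 weeks old, and doxycycline in the drinking water switched the transgene on. The labels give doxycycline at 1 mg/ml for the WT and the TGFb1-Tg lungs alike. The labels give harvests from 2 to 14 days for the study as a whole, while the file headers give 14 days of doxycycline for the TGFb1-Tg lungs and 14 days of water for the WT lungs. Labels and headers thus differ on the treatment of the WT lungs, and this could not be settled. Neither source names the promoter or the cell type that drives the transgene. Each sample, in Cy5, was hybridised beside a pooled control, in Cy3, on a 2-colour Agilent array. By the labels, every array carried 1 and the same wild-type pool. By the headers, water-drinking wild-type lungs (4 of them) made up the pool of the WT arrays, and water-drinking transgenic lungs (also 4) that of the TGFb1-Tg arrays. Replicates are numbered lungs, and nothing else states that they are separate mice, so p-values measure the spread between these samples. By the headers, the 4 ratios of a group also share 1 pool. A trait of that pool would shift all 4 alike without adding to their spread. The p-values of the ratios therefore leave out variation between pools.

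The data gave a direct reading on the pools. Xist, expressed from the inactive X chromosome of females, read 1.04 to 1.13 in the pool channel of the WT set and 0.01 to 0.02 in that of the TGFb1-Tg set, so the pools were not the same RNA. In the samples, Xist was 4.6 in WT replicate 1 and 0.01 to 0.04 in the other 7 lungs, and without WT replicate 1 the counts of transporter genes were 14 higher and 11 lower, against 15 and 11 with it. The lung markers Abca3 and Lamp3, of alveolar type 2 cells, were measured on all 8 arrays, at sample intensities of 15.63 to 19.16 and 4.42 to 6.62. Tgfb1, read by 1 probe for the mouse gene while the transgene is human, had a log2 ratio of 0.03 ± 0.12 in WT and 1.07 ± 0.12 in TGFb1-Tg (SD, n = 4), a 2.04-fold difference (exact permutation test, two-sided p = 0.0286, the smallest this design allows).

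Because of the pools, each gene was read in 2 ways. The first is the log2 ratio of sample over pool, compared between TGFb1-Tg and WT with limma, with Benjamini-Hochberg adjustment over all 25648 genes tested. "Rose" and "fell" below mean an adjusted p under 0.05 in this test. If the headers hold, it compares lungs that each stand over a pool of their own genotype, and doxycycline and the transgene's induction cannot be told apart. The second is the sample channel alone, quantile normalized over the 16 channels, which leaves the pools out. That normalization was needed because dim and bright probes shifted between the array sets in both channels: for probes with a mean intensity under 0.1, the median difference of TGFb1-Tg from WT arrays was -0.53 in the samples and -0.51 in the pools, and for those from 1 to 10 it was 0.23 and 0.22. Centring each array's sample channel on its median, the setting chosen at first, leaves that shift in. It ended the calls of 8 named members that kept their sign (Slc1a1, Slc1a6, Slc3a2, Slc6a3, Slc36a1, Slc36a2, Slc38a1 and Slc43a1). It also turned the sign of Slc1a5 and Slc7a11, which were then not called. The median-centred values are given where they change a statement. Elsewhere, "the sample channel" means the quantile-normalized one. That reading still compares 2 sets of arrays. Normalized in the same way, the pools differed between the sets by a median size of 0.17 over the genes tested. The difference was at least 0.2 in size for 8 of the 26 members called in the ratios. A shift between array sets and a difference between the pools themselves cannot be told apart. Intensities are in the authors' scaled units and are compared only within a probe.

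Of the 62 transporter genes, 15 rose and 11 fell, which is 41.9% called against a background of 38.8% of all genes (19% higher and 19.8% lower). The families as a whole were therefore called about as often as any gene. The median log2 difference was -0.02 over the members and 0 over all genes, and its median size was 0.16 and 0.14. A change of at least 0.5 on the log2 scale was called for 5 members in each direction, against 11.8% of all genes. The 4 TGFb1-Tg and 4 WT ratios did not overlap for 25 members, or 40.3%, against 37.4% of all genes, and 24 of these 25 were called. In the sample channel alone, 11 members were higher and 9 lower (background 33.8% called, 20.5% higher and 13.2% lower). All 26 members called in the ratios had the same sign there, 14 of them were called in the same direction, and 12 were not called. Quantile normalization of the ratios themselves left 9 of the 26 calls: Slc3a2, Slc6a6, Slc7a2, Slc7a6, Slc7a7, Slc7a10, Slc38a1, Slc38a11 and Slc43a3.

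**Figure D1:**
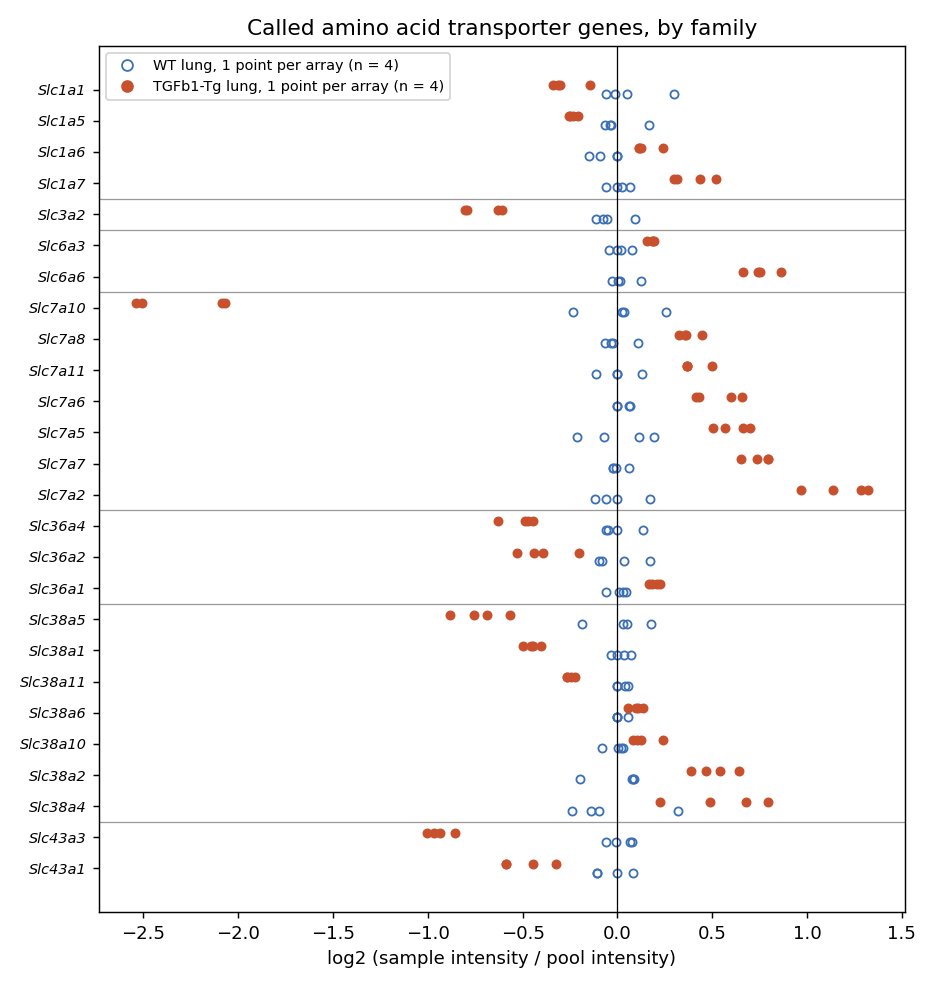
Log2 ratio of sample over pool in each of the 8 lungs for the 26 called transporter genes, ordered by family, with each point a lung. The 4 TGFb1-Tg values of Slc7a10 lie between -2.54 and -2.07 and those of Slc7a2 between 0.97 and 1.32, while WT values lie near 0. By the headers, the WT lungs stand over a pool of wild-type lungs, so WT values near 0 follow from the design and are not a result.

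Slc3a2 encodes the heavy chain, also known as CD98, that carries Slc7a5, Slc7a6, Slc7a7, Slc7a8, Slc7a10 and Slc7a11 to the cell surface. In the ratios, Slc3a2 fell, Slc7a10 fell too, and the other 5 of these partners rose. Of those 5, Slc7a5, Slc7a6 and Slc7a7 were also called in the quantile-normalized sample channel, and Slc7a8 and Slc7a11 were not. To show members of this heteromer beside their values, RefSeq promoter windows (GRCm38.p6, minus strand, 250 bases before to 50 after an annotated start) of Slc3a2, Slc7a7 and Slc7a11 are printed. The light chains Slc7a7 and Slc7a11 are shown because their windows hold the amino acid response element, the motif bound by ATF4, searched as TGATGNAA on both strands and set in capitals.
Slc3a2, chr19:8713848-8714147: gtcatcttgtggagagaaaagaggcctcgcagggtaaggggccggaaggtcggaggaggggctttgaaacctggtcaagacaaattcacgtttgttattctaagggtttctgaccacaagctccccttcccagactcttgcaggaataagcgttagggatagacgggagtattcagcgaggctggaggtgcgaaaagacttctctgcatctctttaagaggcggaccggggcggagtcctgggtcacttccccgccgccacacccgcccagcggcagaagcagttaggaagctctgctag
Slc7a7, chr14:54417895-54418194: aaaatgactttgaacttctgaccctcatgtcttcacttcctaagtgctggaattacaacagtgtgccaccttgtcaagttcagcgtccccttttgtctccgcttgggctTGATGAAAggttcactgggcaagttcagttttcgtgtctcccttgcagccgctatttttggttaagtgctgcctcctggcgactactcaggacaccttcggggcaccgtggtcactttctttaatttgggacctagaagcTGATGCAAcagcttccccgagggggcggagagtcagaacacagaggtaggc
Slc7a11, chr3:50443564-50443863: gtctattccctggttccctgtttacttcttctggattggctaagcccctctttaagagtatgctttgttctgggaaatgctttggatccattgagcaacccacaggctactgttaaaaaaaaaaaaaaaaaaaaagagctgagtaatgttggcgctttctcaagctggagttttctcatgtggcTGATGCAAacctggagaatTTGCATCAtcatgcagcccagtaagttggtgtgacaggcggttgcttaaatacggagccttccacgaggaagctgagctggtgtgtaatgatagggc
The Slc3a2 window holds no match. The Slc7a7 window shown is the one with most matches of 5 annotated starts: 1 other window, which overlaps it, holds 1 match and 3 hold none. The match in that other window is the same TGATGCAA as in the window shown, so this site counts in both windows. The matches of the Slc7a7 window shown begin 141 bases and 1 base before the start. The Slc7a11 window holds a pair of matches on opposite strands that begin 66 and 47 bases before its start. Of 44 members with a window in the RefSeq table, 3 held a match (Slc1a4, Slc7a7 and Slc7a11), in 4 of their 65 windows, against 3.97% of all 32851 windows. The antioxidant response element, TGACNNNGC, was found for 9 of the 44 members, in 11 of their 65 windows, against 12.4% of all windows. The palindromic SMAD box, GTCTAGAC, was found for no member and in 0.213% of all windows. A match is a description of letters and not of a bound site.

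In the sample channel, Slc3a2 read 18.65, 18.34, 18.68 and 17.90 in the WT lungs and 13.99, 14.32, 12.88 and 15.18 in the TGFb1-Tg lungs. Every TGFb1-Tg lung was below every WT lung. Its pool read between 17.53 and 20.19 beside the WT lungs and between 22.17 and 24.39 beside the TGFb1-Tg lungs, so the pools also lay apart, in the opposite order. The log2 ratio fell by 0.67 ± 0.06 (SE; limma, adjusted p = 0.000221), and the sample channel alone gave -0.40 (adjusted p = 0.00564). With each array's sample channel centred on its median in place of quantile normalization, the difference was -0.10 (adjusted p = 0.41). The heavy chain of the other kind, Slc3a1, partner of the cystine carrier Slc7a9, lay at the bottom of the intensity range and was not called in the ratios (-0.08), nor was Slc7a9 (-0.07).

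Slc7a7 encodes the light chain that exchanges cationic for neutral amino acids and is known from macrophages and from the gut and kidney lining. It read 1.77, 1.67, 1.73 and 1.7 in the WT lungs and 4.09, 3.08, 3.82 and 3.26 in the TGFb1-Tg lungs. The groups did not overlap, and neither did the pools, at 1.66 to 1.80 and 1.96 to 2.36. The log2 ratio rose by 0.74 ± 0.04 (limma, adjusted p = 1.9e-05), and by 0.87 in the sample channel alone (adjusted p = 0.000262). All 5 macrophage markers (Cd68, Adgre1, Itgam, Mrc1 and Cd14) rose too, and their summed sample intensity was 17.64 to 18.94 in WT and 30.03 to 33.67 in TGFb1-Tg. Their part in the difference of Slc7a7 was not tested. In whole lung, more cells of a type and more RNA per cell cannot be told apart, for this and every other gene here.

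Slc7a5, the carrier of leucine and other large neutral amino acids, read 0.26, 0.19, 0.24 and 0.20 in WT and 0.37, 0.38, 0.34 and 0.39 in TGFb1-Tg. No WT lung reached the lowest TGFb1-Tg lung, and the pools stayed between 0.21 and 0.25 on all 8 arrays. The ratio rose by 0.60 ± 0.10 (adjusted p = 0.00229), and the sample channel alone gave 0.85 (adjusted p = 0.000479). Quantile normalized like the samples, the Slc7a5 pools differed by 0.30 between the array sets. The 4 markers of dividing cells rose as well, from a summed intensity of 2.00 to 2.78 in WT to 8.92 to 10.8 in TGFb1-Tg, and their part in this difference was not tested. Slc7a6, which shares the exchange of Slc7a7, read 0.42 to 0.50 in WT and 0.56 to 0.74 in TGFb1-Tg. It rose by 0.49 ± 0.06 in the ratios and by 0.47 in the sample channel (limma, adjusted p = 0.00062 and 0.0042).

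Slc7a8 and Slc7a11 were each called by 1 probe of a pair. Slc7a8, a second exchanger of neutral amino acids, rose by 0.38 ± 0.04 as the mean of probes with differences of 0.68 and 0.07, and the sample channel gave 0.35 (adjusted p = 0.163) after quantile normalization and 0.47 (adjusted p = 0.0456) after median centring. Slc7a11, the exchanger that takes in cystine for glutathione synthesis, rose by 0.40 ± 0.06 with probes at 0.79 and 0.00. Its sample readings were 0.05 to 0.09 in WT and 0.05 to 0.06 in TGFb1-Tg for the probe that was called, while its pool read 0.05 to 0.09 beside the WT lungs and 0.03 on every TGFb1-Tg array. The samples overlapped and the pools did not. The sample channel alone gave 0.03 (adjusted p = 0.924) after quantile normalization and -0.28 after median centring. The intensity steps of 0.01 in the deposited table are coarse at this level.

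Slc7a10 encodes the carrier of alanine, serine, cysteine and D-serine, and it is known as a surface marker of white fat cells as well as from brain. Its sample intensities were 2.44, 1.37, 1.7 and 1.73 in WT and 0.38, 0.41, 0.52 and 0.48 in TGFb1-Tg, and no lungs of the 2 groups overlapped. Its pools read 1.61 to 2.04 and 2.04 to 2.33. The log2 ratio fell by 2.32 ± 0.15 (limma, adjusted p = 4.61e-05), a 5-fold lower ratio, and the sample channel alone gave -2.07 (adjusted p = 5.87e-05). This was the largest difference among the 62 members in both readings. The 3 fat markers (Adipoq, Cidec and Plin1) fell too in the ratios, and Plin1 was not called in the sample channel (0.05). Their summed sample intensity was 1.72 to 2.41 in WT and 0.75 to 1.115 in TGFb1-Tg, and their part in the fall of Slc7a10 was not tested. A fall was not particular to fat markers: the cardiac muscle markers Myh6, Nppa and Tnni3 had differences of -1.39, -1.72 and -1.65.

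**Figure D2:**
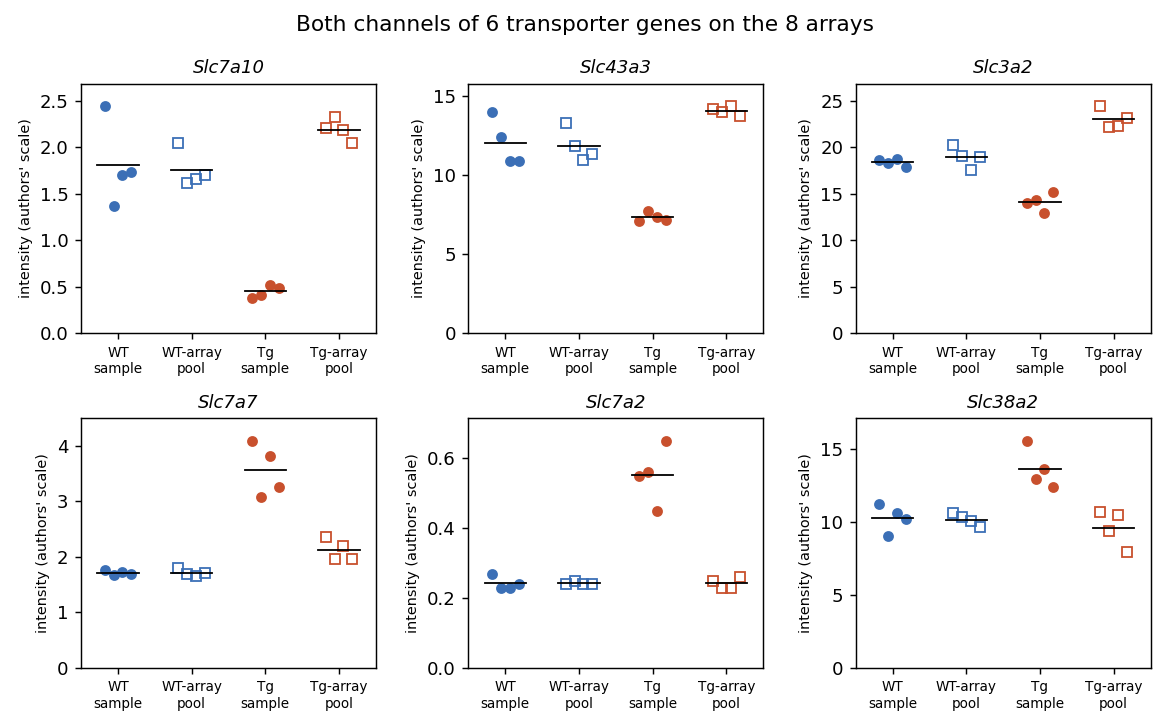
Intensity of the sample channel and of the pool channel on each array, on linear axes that start at 0, for 6 transporter genes, with filled circles for samples, open squares for pools and lines at the means. For Slc3a2 the samples and the pools separate in opposite directions, and for Slc7a10 the TGFb1-Tg samples lie between 0.38 and 0.52.

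The Slc7 family as a whole gave 6 higher, 1 lower and 8 genes not called. Among its carriers of arginine and lysine that need no heavy chain, Slc7a2 rose and its relatives were not called. Slc7a2 supplies arginine to nitric oxide synthase and arginase in activated macrophages. It read 0.27, 0.23, 0.23 and 0.24 in WT and 0.55, 0.56, 0.45 and 0.65 in TGFb1-Tg. The groups did not overlap, and the pools read 0.23 to 0.26 on all 8 arrays. The log2 ratio rose by 1.18 ± 0.10 (limma, adjusted p = 0.000106), or 2.27-fold, and the sample channel gave 1.24. Slc7a1, the arginine carrier of most cells, had a ratio difference of 0.04 with a 95% interval of -0.05 to 0.12, and -0.34 in the sample channel (adjusted p = 0.0282). Its pool, normalized in the same way, differed by -0.37 between the array sets. Slc7a3 and Slc7a4 had differences of -0.05 and -0.02.

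In the Slc38 family of sodium-coupled carriers of glutamine and other small neutral amino acids, 4 genes rose, 3 fell and 4 were not called. Slc38a2, a carrier of alanine and glutamine that cells raise when amino acids are short, read 11.25, 9.05, 10.60 and 10.19 in WT and 15.54, 12.94, 13.64 and 12.41 in TGFb1-Tg. The groups did not overlap, and the ratio rose by 0.50 ± 0.08 (adjusted p = 0.00277). The sample channel alone gave 0.33 (adjusted p = 0.0776) after quantile normalization and 0.69 (adjusted p = 0.00138) after median centring. Slc38a1, which neighbours Slc38a2 on the chromosome and carries glutamine, read 0.38 to 0.42 in WT and 0.27 to 0.34 in TGFb1-Tg. It fell by 0.47 ± 0.03 (adjusted p = 3.8e-05), and the sample channel gave -0.30 (adjusted p = 0.047) after quantile normalization and -0.06 (adjusted p = 0.721) after median centring.

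Slc38a4, on the other side of Slc38a2, rose by 0.59 ± 0.16 (limma, adjusted p = 0.0275). Its groups overlapped: the WT ratios ran from -0.24 to 0.32 and the TGFb1-Tg ratios from 0.23 to 0.80. Leaving out any 1 of 6 arrays (WT replicates 2, 3 and 4, TGFb1-Tg replicates 1, 2 and 4) ended the call, with differences of 0.50 to 0.61 and adjusted p-values of 0.0575 to 0.0753. The sample channel alone gave 0.94 (adjusted p = 0.0125), and the Slc38a4 pools, normalized in the same way, differed by 0.39. Slc38a5, a glutamine and histidine carrier on the X chromosome, read 2.82, 2.86, 2.55 and 2.97 in WT and 1.98, 1.5, 1.97 and 1.64 in TGFb1-Tg, without overlap. It fell by 0.74 ± 0.09 (adjusted p = 0.00079), and by the same amount without WT replicate 1, the lung that stood apart in Xist. The sample channel gave -0.84 after quantile normalization and -0.38 (adjusted p = 0.0421) after median centring.

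The smaller calls of the Slc38 family were Slc38a11, which fell by 0.27, and Slc38a10 and Slc38a6, which rose by 0.15 and 0.09. None of these 3 was called in the quantile-normalized sample channel, and all 3 were called in the same direction in the median-centred one, at -0.32, 0.49 and 0.36 (limma, adjusted p = 0.037, 0.00765 and 0.0402). Slc38a10 lost its call without WT replicate 2, 3 or 4 or TGFb1-Tg replicate 3, with differences of 0.12 to 0.15, and Slc38a6 without WT replicate 1, 3 or 4 or TGFb1-Tg replicate 2, at 0.08 each. Slc38a9, the lysosomal carrier that senses arginine for mTORC1, differed by -0.03 as the mean of 3 probes, with a 95% interval of -0.09 to 0.03.

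In the Slc6 family 2 of 20 genes were called, both higher, against 38.8% of all genes. Of the 20, 8 had all probes under a mean intensity of 0.1, and 1 of the 17 such members of all families was called. Slc6a6, the taurine and β-alanine transporter, read 6.02, 5.03, 4.47 and 4.53 in WT and 8.91, 7.95, 8.17 and 8.61 in TGFb1-Tg. All TGFb1-Tg lungs were above all WT lungs, and the pools covered 4.42 to 5.53 and 4.73 to 5.30. The ratio rose by 0.72 ± 0.05 (limma, adjusted p = 5.79e-05), and by 0.56 in the sample channel. Slc6a3, the dopamine transporter, rose by 0.17 as the mean of probes at 0.33 and 0.00, and was not called in the sample channel alone (0.10, adjusted p = 0.477). Slc6a2, the noradrenaline transporter, had the lowest value of the family, -0.28 (adjusted p = 0.0966; 0.19 in the median-centred sample channel), and was called without WT replicate 4 (-0.35, adjusted p = 0.0438). With probes under a mean intensity of 0.1 left out, Slc6a2 was called too (-0.28, limma, adjusted p = 0.0438). Slc6a15 was not called as the mean of 2 probes (-0.07). The brighter probe was lower by 0.42 (limma by probe, adjusted p = 0.0142), and the dim one differed by 0.27 and was not called. The serotonin transporter Slc6a4 differed by -0.02 and the creatine transporter Slc6a8 by 0.08, neither called.

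**Figure D3:**
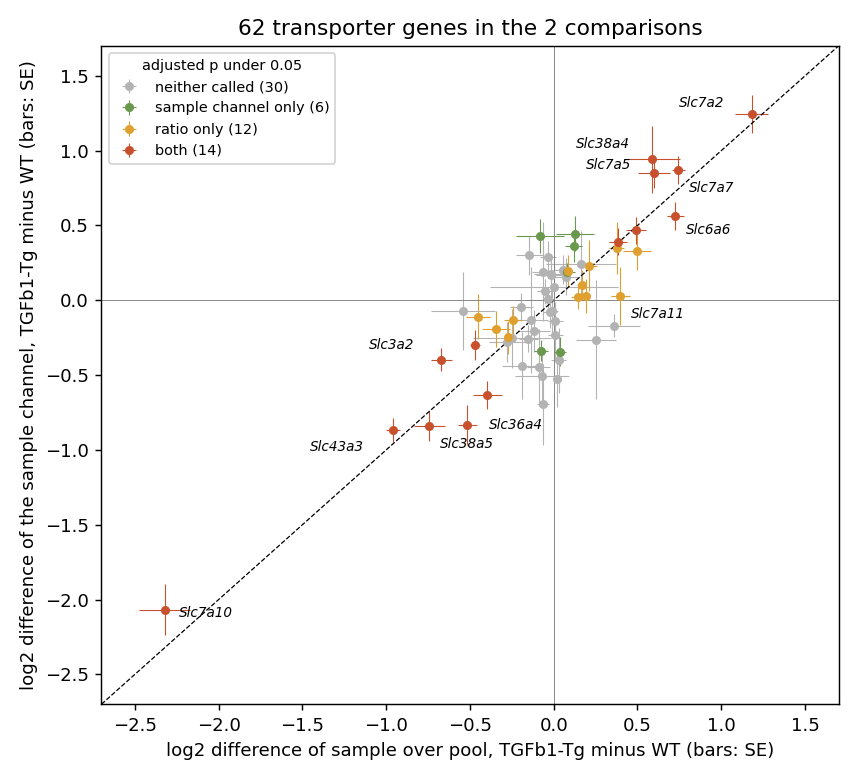
Log2 difference of TGFb1-Tg from WT in the sample channel alone against that in the ratio of sample over pool, 1 point with SE bars for each of the 62 transporter genes and a dashed line of equality. The 26 members called in the ratios keep their sign in the sample channel, where Slc7a11 lies near 0. Of the members called in the sample channel only, Slc3a1 and Slc7a1 differ in sign between the readings.

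Carriers of glutamate and of small neutral amino acids in the Slc1 family gave 2 higher and 2 lower genes. Slc1a5, a glutamine carrier of dividing cells, fell by 0.24 ± 0.05 in the ratios (limma, adjusted p = 0.00857), with WT values of -0.07 to 0.17 and TGFb1-Tg values of -0.25 to -0.21. The sample channel alone gave -0.13 (adjusted p = 0.319) after quantile normalization and 0.35 after median centring. Slc1a1, the neuronal and epithelial carrier of glutamate and cysteine, fell by 0.34 ± 0.09 with probes at -0.58 and -0.10, and lost its call in the sample channel (-0.19). Slc1a7 rose by 0.38 ± 0.06 (adjusted p = 0.00155), and by 0.39 in the sample channel (adjusted p = 0.0111), and Slc1a6 rose by 0.21 in the ratios and was not called in the sample channel (0.23, adjusted p = 0.323). The main glial glutamate carriers Slc1a2 and Slc1a3 were not called, although 1 of 3 probes for Slc1a2 was lower by 0.50.

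The Slc36 family carries amino acids at lysosomes or at the cell surface, and 1 of its 4 genes was higher, 2 lower and 1 not called. Slc36a4 read 0.22, 0.30, 0.24 and 0.20 in WT and 0.11, 0.10, 0.11 and 0.13 in TGFb1-Tg, with no overlap. It fell by 0.52 ± 0.06 in the ratios and gave -0.83 in the sample channel (limma, adjusted p = 0.000438 and 0.00193). The pools of Slc36a4 moved the same way, at 0.20 to 0.31 beside the WT lungs and 0.14 to 0.18 beside the TGFb1-Tg lungs. Normalized like the samples, they differed by -0.38. Slc36a2, a carrier of glycine and proline, fell by 0.40 ± 0.09, and the sample channel gave -0.63 (adjusted p = 0.00129) after quantile normalization and -0.18 (adjusted p = 0.33) after median centring. After quantile normalization the pools of Slc36a2 differed by -0.24. The chromosomal neighbour of Slc36a2, the lysosomal carrier Slc36a1, was called higher as the mean of a pair of probes. These were themselves called in opposite directions, at 0.50 and -0.12 (background of a fit by probe, 38.5% called). The direction for Slc36a1 therefore depends on the probe.

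**Figure D4:**
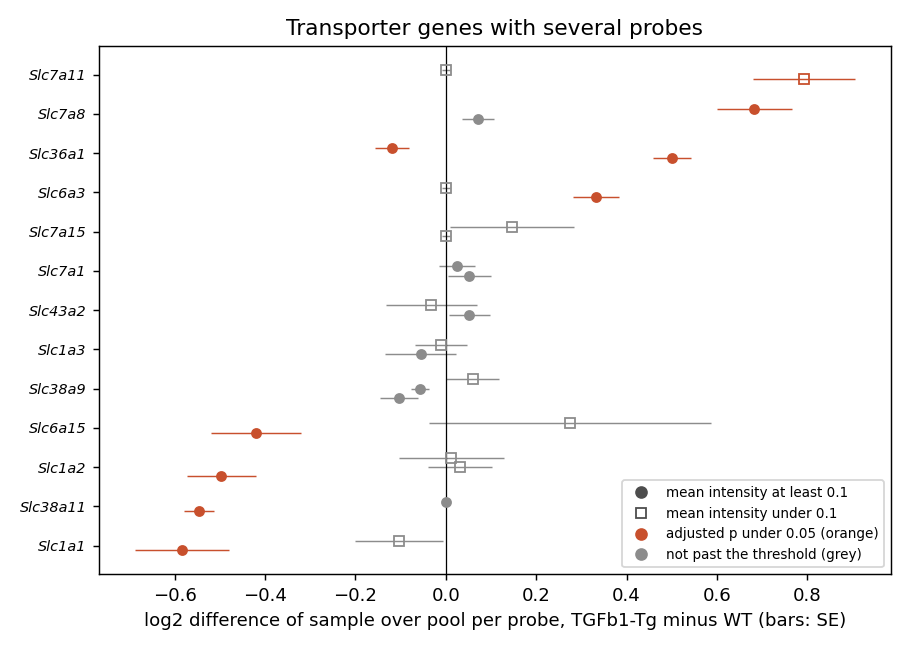
Log2 difference of TGFb1-Tg from WT for each probe of the 13 transporter genes read by several probes, with SE bars. The probes of Slc36a1 lie on opposite sides of 0, and for Slc7a11, Slc7a8, Slc38a11 and Slc6a3 1 of the pair lies near 0.

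In the Slc43 family, Slc43a3, the purine nucleobase carrier, read 14.03, 12.40, 10.89 and 10.89 in WT and 7.08, 7.71, 7.35 and 7.18 in TGFb1-Tg. Its pools read 10.93 to 13.32 and 13.74 to 14.36, so the samples separated and no pool was as low as the TGFb1-Tg lungs. The ratio fell by 0.96 ± 0.04 (limma, adjusted p = 1.3e-05), and the sample channel alone gave -0.86 (adjusted p = 0.000105) after quantile normalization and -0.42 (adjusted p = 0.0194) after median centring. The 3 endothelial markers (Pecam1, Cdh5 and Kdr) fell as well. The summed intensity of the 2 that were measured on all arrays was 9.48 to 11.8 in WT and 6.75 to 8.01 in TGFb1-Tg, and their part in the fall of Slc43a3 was not tested. Slc43a1, a leucine carrier, fell by 0.45 ± 0.07 (adjusted p = 0.00255), and the sample channel alone gave -0.11 (adjusted p = 0.608). Slc43a2, its relative, differed by 0.01 (95% interval -0.09 to 0.11) and was not called.

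The other 36 members were not called, with differences from -0.54 to 0.36, and 31 of them lay within 0.2 of 0. The lowest was Slc7a13 (-0.54, adjusted p = 0.0641) and the highest Slc6a20b (0.36, adjusted p = 0.122), both at the bottom of the intensity range. Of the 17 members whose probes all had a mean intensity under 0.1, 16 were not called, and Slc7a11 was the exception. The deposited values have few steps at these levels. Of the 6 members called in the sample channel alone and not in the ratios, Slc6a20a, Slc3a1, Slc38a7 and Slc6a8 were higher, at 0.45, 0.43, 0.36 and 0.19, and Slc6a9 and Slc7a1 lower, at -0.34 each. Slc3a1 and Slc38a7 are dim, and their groups overlapped in that channel. The deposited sample intensities of Slc3a1 were 0.04 to 0.05 in both groups, while the same normalization put its pool higher by 0.54 on the TGFb1-Tg arrays. The pools of the others also moved the way of their samples. They differed by 0.33 for Slc6a20a, 0.26 for Slc38a7, 0.12 for Slc6a8, -0.25 for Slc6a9 and -0.37 for Slc7a1. On the TGFb1-Tg arrays, the authors' deposited p-value was under 0.01 for 65 of 308 member values, or 21.1%, against 10.98% over all probes, and on the WT arrays for 1 of 308, against 0.229%.

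Genes that act beside the carriers moved in both directions, and their counts stand against the 38.8% of all genes called in the ratios and 33.8% in the sample channel. Of 21 other carriers of amino acids and peptides, 9 rose and 4 fell, or 61.9%, with a median of 0.06; in the sample channel 8 were higher and 1 lower, with a median of 0.18. Among them Slc15a3, which moves peptides and histidine out of the lysosome, rose by 1.00. Of 16 tested genes of the response to amino acid shortage, which includes ATF4 and its targets, 7 rose and 5 fell, or 75%, with a median of -0.01; in the sample channel 6 were higher and 3 lower, with a median of 0.20. Atf4 itself fell by 0.34 in the ratios and was not called in the sample channel (-0.17, adjusted p = 0.151). A change of at least 0.5 was called for 3 of these genes in each direction, and all were called the same way in the sample channel. Ddit4 rose by 0.97, Psat1 by 0.74 and Aldh18a1, a proline synthesis enzyme, by 0.94, with 0.98 in the sample channel for Aldh18a1. Atf5, Ddit3 and Chac1 fell, with differences of -0.74, -0.63 and -0.55. Of 22 tested genes of amino acid sensing by mTORC1, 5 rose and 5 fell, or 45.5%, with a median of 0.01, and in the sample channel 4 were higher and 3 lower. Sesn2 (on both of the last lists), Phgdh and Mlst8 had no tested probe.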

How the data were processed

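Each array's deposited table gave, per probe, the intensity of the pooled control (Cy3) and of the lung sample (Cy5), as scaled by the authors, and a p-value; the deposited value table gave log10 ratios, which equalled log10 of sample over pool intensity within 0.002 for at least 99.99% of probes. The submitters' processing notes list Agilent Feature Extraction 8.5.1.1, with no background correction or dye normalization stated. The number of arrays limits the precision. Ratios were converted to log2, probes of a gene averaged, and genes with at least 2 values per group tested with limma 3.58.1 (R 4.3.3, lmFit and eBayes, Benjamini-Hochberg adjustment over 25648 genes, call at an adjusted p under 0.05) in 4 WT and 4 TGFb1-Tg arrays. The fit was tested on simulated data. Tgfb1 had an exact permutation test. Probes were named through RefSeq accessions and current symbols (GRCm38.p6, names only), and 1 probe outside the rule whose updated symbol is Slc38a9 was left out.

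The members and the lists were chosen with earlier results of these data known. Named genes are members called with at least 0.5, the largest rise and fall of each family, members whose probes were called in opposite directions, members whose direction or call changed in a direct comparison of the sample channels, and Tgfb1. Slc7a6 and other named members outside this rule were chosen after their values were seen. The quantile-normalized sample channel was chosen after seeing the data.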

Additional observations from a re-analysis of the deposited data

Results flagged for a closer look

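In 5 of the 56 groups of 4 ratios checked (28 named members in both groups), 1 lung lay apart from the other 3 by more than Dixon's 95% critical value. Chance flags about 1 group in 20. Slc1a5 read 0.17 in WT replicate 1 against -0.07 to -0.03 in the other WT lungs, and Slc38a2 read -0.20 in WT replicate 2 against 0.08 to 0.09. Slc38a6 read 0.054 in WT replicate 2 and 0 in the other 3. In TGFb1-Tg replicate 1, Slc1a6 read 0.24 against 0.12 to 0.13, and Slc7a11 read 0.50 against 0.37 in each of the other lungs.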

How the results depend on the processing

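Median centring, an offset of 0.05, an intensity trend with robust prior and the deposited value table changed the call of none of the 28 named members. Leaving out probes with a mean intensity under 0.1 gave 14 transporter genes higher and 16 lower, and 4666 and 5016 of all genes. In that setting Slc6a2 gained a call (limma, adjusted p = 0.0438), and Slc7a11 had no probe left. Quantile normalization of the ratios left 4 transporter genes higher and 5 lower, and 1602 and 1478 of all genes, against 15, 11, 4874 and 5082. With the median-centred sample channel alone, 9004 of all genes were higher, and 8 named members lost their call and kept their sign. Another 2 lost their call and turned: Slc1a5 to 0.35 and Slc7a11 to -0.28 (limma, adjusted p = 0.0675 and 0.23). Of those not called in the ratios, Slc6a2 turned to 0.19 and Slc43a2 to -0.18, still not called. Slc36a1 turned to -0.12 by its second probe. Leaving out 1 array gave 12 to 14 transporter genes higher and 11 to 13 lower, 4277 to 4570 and 4497 to 4821 of all genes, and 0.99 to 1.09 for Tgfb1. The replicate numbers did not pair the samples (same-number correlations of -0.05 to 0.05). With the replicate number as a block, 15 transporter genes were higher and 12 lower, Slc1a1 lost its call (adjusted p = 0.0762) and Slc6a2 gained one (adjusted p = 0.00864). Slc43a3, Slc6a6, Slc7a10, Slc7a2, Slc7a6 and Slc7a7 were called in every setting. Of the 17 members with signals under 0.1, 1 was called.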
